A study of Mus musculus with 2 samples.

Results

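Methylation of lysines on the histone H3 tail is written by methyltransferases, most of which carry a SET domain, and removed by demethylases of the KDM families. Methylation of H3K4 and H3K36 marks active promoters and transcribed genes, whereas methylation of H3K9 and H3K27 goes with silent chromatin. In the male germ line these enzymes take part in meiotic chromosome pairing, in silencing of the sex chromosomes during meiotic prophase and in the later repackaging of sperm chromatin. The genes described here are the protein-coding genes of the Kdm, Setd and Setdb, Suv39h, Ehmt, Kmt2, Prdm, Nsd and Ezh families, taken by symbol from the deposited table. They number 54 of 53801 genes, of which 22058 are protein-coding: 24 SET-domain genes outside the Prdm family, 18 Kdm genes and 12 Prdm genes. Not all are histone lysine enzymes by function. Setd3 is known as a methyltransferase of actin, Setd6 mainly of proteins other than histones, and several Prdm proteins have no established enzyme activity.

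RNA was measured in spermatocytes, the meiotic germ cells, isolated by sorting from mouse testis. One library was labelled wild type for Smc1b, the gene of the meiosis-specific cohesin subunit SMC1beta, and 1 library was labelled as an Smc1b knockout overexpressing SMC1alpha, the form of the subunit found in all cells. The knockout of Smc1b and the added SMC1alpha come together in the label of this library, so their parts cannot be told apart. Strain, age, the driver of the added SMC1alpha and the meaning of "4N" in the sample names were not stated in the labels. Each genotype has 1 library, so differences have no replicate check and no p-value, and words such as higher or lower describe these 2 libraries. Levels are TPM, a share of all transcripts corrected for gene length, so levels of different genes can be compared, and the depth behind each value is unknown. Each ratio is the log2 of (TPM + 1) of the library labelled knockout, divided by (TPM + 1) of wild type; that library is called knockout-labelled. A gene was counted as higher or lower when this ratio reached 2-fold and at least 1 library showed 1 TPM or more.

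Values of the whole libraries bear on how these ratios read. Smc1b measured 76.1 TPM in wild-type cells and 62.9 TPM in knockout-labelled cells, so the deletion cannot be seen in the gene total, and Smc1a measured 0.51 and 28.8 TPM. Marker lists of neighbouring cell types differed between the libraries. Of 12 spermatogonia markers 9 were higher, and the list came to a sum of 40.8 TPM in wild-type cells and 114 TPM in knockout-labelled cells. Of 9 genes of early meiotic prophase all 9 were higher (243 and 771 TPM summed), as were 8 of 8 Leydig cell markers (63.8 and 1665 TPM), 8 of 10 Sertoli cell markers (67.2 and 433 TPM) and 6 of 10 macrophage markers (4.52 and 31.6 TPM, with C1qa and Fcer1g listed at 0 in wild type). Of 10 markers of late pachytene and diplotene 5 were lower and 0 higher (2765 and 1463 TPM summed), and all 10 spermatid markers were lower (2593 and 59.3 TPM). The part of these lists in the results that follow was not tested. In bulk RNA, fewer cells of a type and less RNA per cell cannot be told apart.

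The histone lysine enzymes held a nearly equal share of the transcriptome in both libraries, while single genes differed by up to 15.3-fold. Together the 54 genes made up 1921 TPM of the wild-type library and 1803 TPM of the knockout-labelled library, 0.19% and 0.18% of all transcripts. Of the TPM of protein-coding genes, which itself was 62.6% and 49.0% of the total, they held 0.31% and 0.37%. Of the 49 genes that reached 1 TPM in either library, 11 were higher, 4 were lower and 34 were within 2-fold. Without the added 1 TPM, 14 were 2-fold higher on TPM and 5 lower, the additional genes being Kmt2c, Kdm4c, Setd7 and Prdm8. The share of protein-coding genes past 2-fold on TPM alone is not given here. With 0.1 TPM added, the counts were also 14 and 5, beside 23.9% and 19.8% of protein-coding genes. With 1 TPM added, 18.7% of 14998 protein-coding genes at 1 TPM or more were higher and 16.5% were lower. The members' 11 and 4 of 49 are read against these shares, and with 1 library per genotype their difference from the background carries no test. The genes Kmt2a, Setd7, Kdm6a and Prdm6 reached 1 TPM in knockout-labelled cells and not in wild type. The other 5 genes, Prdm1, Prdm12, Prdm13, Prdm14 and Prdm16, stayed between 0.016 and 0.69 TPM in both libraries. Over all 54 genes the median log2 ratio was 0.17, against 0.00 over all protein-coding genes treated the same way. At 4-fold, 3 genes were higher, Suv39h1, Ehmt1 and Kmt2a, and 0 were lower, where 7.95% of protein-coding genes passed 4-fold in either direction.

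**Figure D1:**
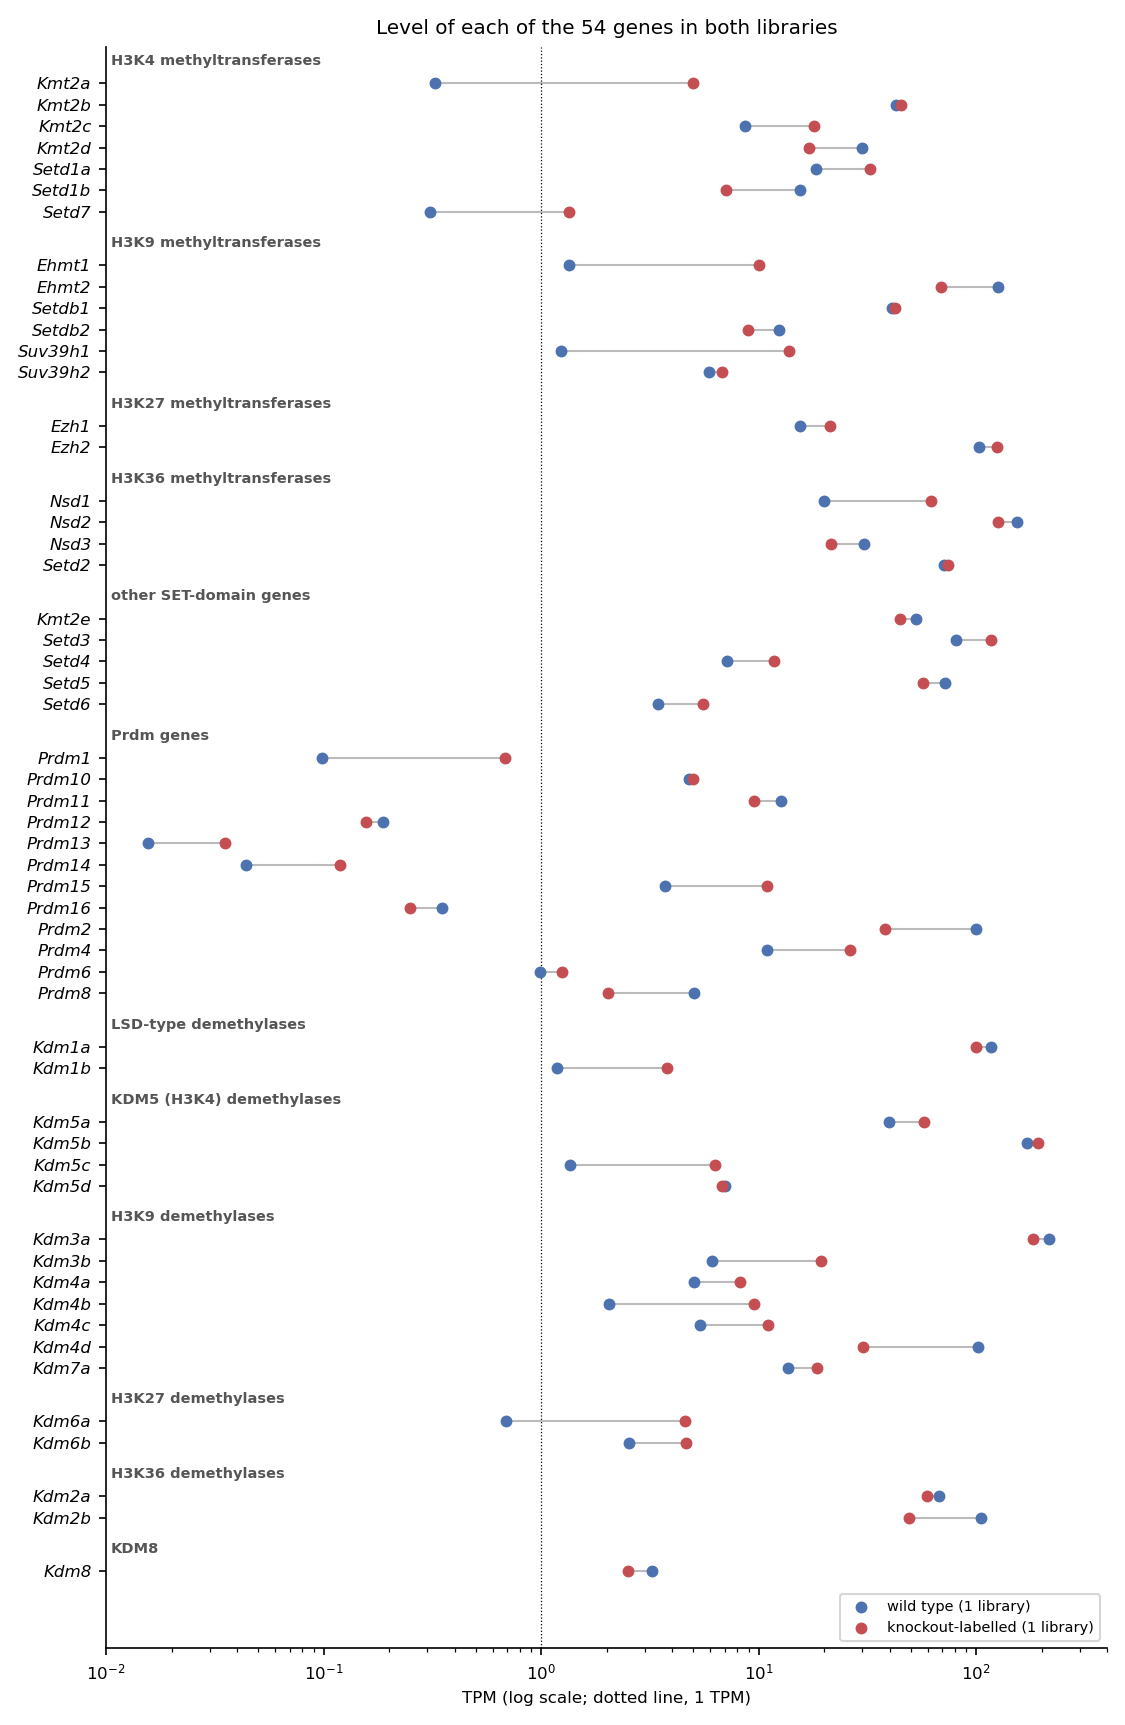
TPM (log axis) of each of the 54 genes, grouped by role, in the wild-type library (blue) and the knockout-labelled library (red), with a grey line joining both values of a gene and a dotted line at 1 TPM. The long lines with red to the right belong to genes that were low in wild type, such as Kmt2a, Suv39h1 and Ehmt1, and Kdm4d, Prdm2 and Prdm8 have the longest lines with blue to the right.

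Kdm3a, a demethylase of H3K9, Kdm5b, a demethylase of H3K4, and Nsd2, a methyltransferase of H3K36, were the most abundant of the group in both libraries. In wild type the order began with Kdm3a at 216 TPM, Kdm5b at 171 TPM, Nsd2 at 155 TPM, Ehmt2 at 126 TPM and Kdm1a at 117 TPM. In the labelled knockout it began with Kdm5b at 193 TPM, Kdm3a at 182 TPM, Nsd2 at 126 TPM, Ezh2 at 125 TPM and Setd3 at 117 TPM. The first 5 genes of each order held 40.9% of the summed TPM of the group in wild type and 41.2% in knockout-labelled cells. At the lower end of the order, 9 genes stood below 1 TPM in wild type and 5 in knockout-labelled cells, and the first quartile was 2.18 TPM in wild type and 5.14 TPM in knockout-labelled cells. The third quartile was 50.7 TPM in wild type and 45.1 TPM in knockout-labelled cells.

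Higher genes were mostly rare ones and lower genes mostly abundant ones, and protein-coding genes at large leaned the same way. Of 19 genes with a mean of 1 to 10 TPM over both libraries, 8 were higher and 0 lower, against 28.3% higher and 12.9% lower among 6453 protein-coding genes of that range. Of 16 genes with a mean of 10 to 50 TPM, 3 were higher and 1 lower, against 13.0% and 18.0% of 4982 protein-coding genes. Of 13 genes at a mean of 50 TPM or more, 0 were higher and 3 lower, against 3.68% and 26.0% of 2687 protein-coding genes. Across the 49 genes the rank correlation between mean TPM and log2 ratio was -0.47, and across the 14998 protein-coding genes it was -0.31. These points share both libraries and the same total, and genes are not independent replicates. Gene length (rho = -0.05) and G+C content (rho = -0.03) had rank correlations near 0 with the ratio. The 54 genes were long, with a median length of 7430 bases against 3977 bases for protein-coding genes at 1 TPM or more.

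**Figure D2:**
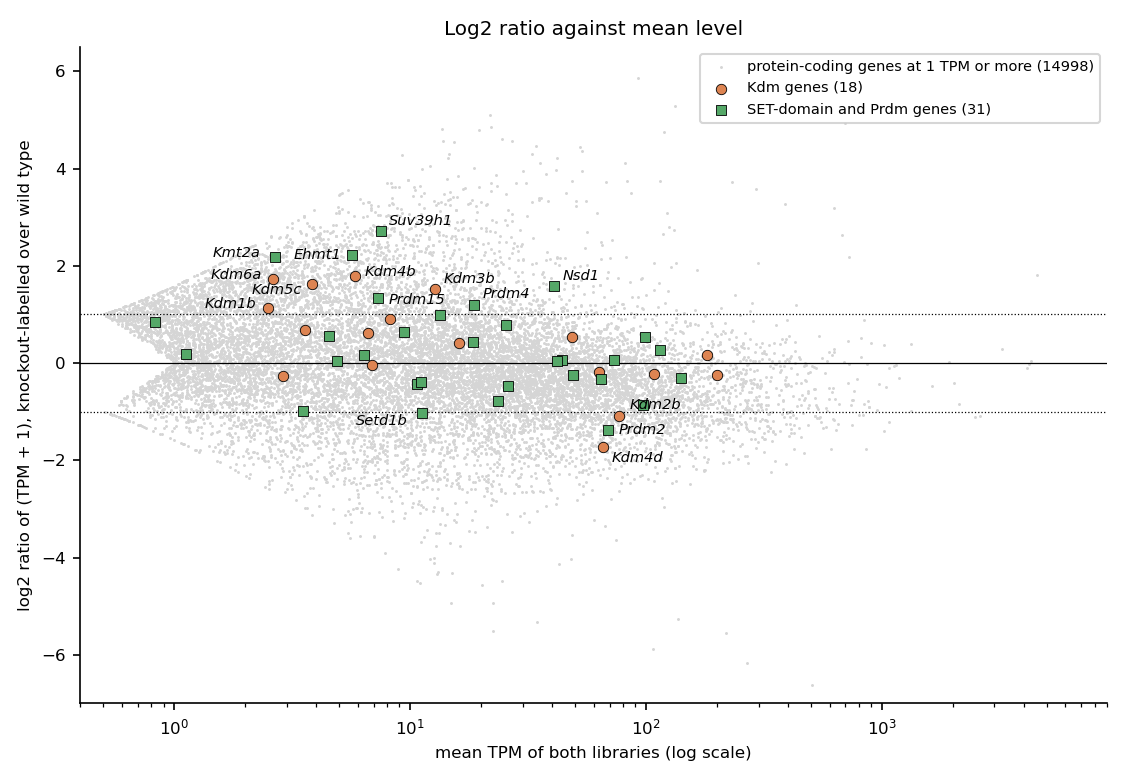
Log2 ratio of (TPM + 1), knockout-labelled over wild type, against the mean TPM of both libraries (log axis) for 14998 protein-coding genes (grey), the 18 Kdm genes (orange circles) and 31 SET-domain and Prdm genes (green squares), with dotted lines at 2-fold. The 11 named genes above the upper line have means under 50 TPM, and 3 of the 4 below the lower line have means above 50 TPM.

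Among the H3K9 methyltransferases, the 2 genes that were more than 4-fold higher were the rarer paralogue of their pair in wild type. SUV39H1 and SUV39H2 methylate H3K9 in pericentromeric heterochromatin, and SUV39H2 is the form known for its expression in mouse testis. Suv39h1 (ENSMUSG00000039231, chrX:8061171-8074760, minus strand; mm10) measured 1.24 TPM in wild-type cells and 13.7 TPM in knockout-labelled cells, 11.1-fold higher (log2 ratio 2.72). Suv39h2 (ENSMUSG00000026646, chr2:3455815-3475031, minus strand) measured 5.93 and 6.76 TPM (log2 ratio 0.16). Suv39h1 therefore held 17.3% of the summed TPM of the pair in wild type and 67.0% in knockout-labelled cells, and this share does not depend on how the libraries are scaled. EHMT1 and EHMT2 (GLP and G9a) work as a heterodimer on H3K9 in euchromatin. Ehmt1 (ENSMUSG00000036893, chr2:24789928-24919614, minus strand) measured 1.34 and 10.01 TPM, 7.45-fold higher (log2 ratio 2.23), while Ehmt2 measured 126 and 69.1 TPM (log2 ratio -0.85). Ehmt2 still held 98.9% of the pair in wild type and 87.4% in knockout-labelled cells. Setdb1, whose product silences retroelements together with TRIM28, measured 41.2 and 42.3 TPM, and Setdb2 12.5 and 8.92 TPM. Of the 6 genes, 2 were higher and 0 lower, beside 18.7% and 16.5% of protein-coding genes at 1 TPM or more. The median log2 ratio of the 6 genes was 0.10, and their summed TPM was 188 in wild type and 151 in knockout-labelled cells.

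The 250 bases before the RefSeq start site are shown for Suv39h1 and Suv39h2, the pair whose shares differed most between the libraries. They are also shown for Kdm6a, another X-linked gene that was higher, and for Kdm4d, the gene with the lowest ratio. Capitals mark CpG dinucleotides, the sites of DNA methylation, and each sequence is written 5′ to 3′ on the strand of its gene, from the RefSeq promoter table for GRCm38.p6. The Suv39h1 window is chrX:8074761-8075010 (minus strand), that of Suv39h2 is chr2:3474987-3475236 (minus strand), that of Kdm6a is chrX:18162325-18162574 (plus strand) and that of Kdm4d is chr9:14500483-14500732 (minus strand). The RefSeq start of Suv39h2 lies 45 bases inside the gene as deposited, and no transcript of the GENCODE M21 annotation starts there. Its window therefore includes the first 45 bases of that gene. The starts of Suv39h1, Kdm6a and Kdm4d match a transcript start.
Suv39h1: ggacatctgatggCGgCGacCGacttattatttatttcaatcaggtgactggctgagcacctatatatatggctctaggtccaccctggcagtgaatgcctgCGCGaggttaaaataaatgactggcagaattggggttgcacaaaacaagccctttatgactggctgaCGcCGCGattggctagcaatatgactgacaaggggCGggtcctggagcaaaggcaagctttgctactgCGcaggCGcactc
Suv39h2: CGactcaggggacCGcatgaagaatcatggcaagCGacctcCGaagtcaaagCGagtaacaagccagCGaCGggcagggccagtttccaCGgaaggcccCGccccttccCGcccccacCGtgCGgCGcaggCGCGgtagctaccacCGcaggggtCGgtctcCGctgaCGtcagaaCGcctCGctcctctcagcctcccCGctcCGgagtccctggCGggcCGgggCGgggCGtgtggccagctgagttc
Kdm6a: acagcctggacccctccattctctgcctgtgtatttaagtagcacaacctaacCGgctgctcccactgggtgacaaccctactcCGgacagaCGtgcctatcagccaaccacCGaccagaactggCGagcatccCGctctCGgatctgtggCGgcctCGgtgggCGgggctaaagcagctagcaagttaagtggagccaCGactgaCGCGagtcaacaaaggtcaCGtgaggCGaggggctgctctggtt
Kdm4d: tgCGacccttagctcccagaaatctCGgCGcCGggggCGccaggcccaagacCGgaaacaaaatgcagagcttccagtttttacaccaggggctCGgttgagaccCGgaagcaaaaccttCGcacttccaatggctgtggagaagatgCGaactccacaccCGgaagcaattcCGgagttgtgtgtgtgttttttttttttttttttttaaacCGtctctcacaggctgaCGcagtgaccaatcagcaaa
The Suv39h2 window held 27 CpG and 69.6% G+C, whereas the Suv39h1 window held 11 CpG and 51.6% G+C. The Kdm6a window held 15 CpG and 59.6% G+C, and the Kdm4d window held 14 CpG and 51.6% G+C. Promoters of 40 of the 54 genes were in the table, and over their windows of 300 bases (250 before to 50 after the start) the median was 24 CpG. The median over all 32851 windows of the table was 7 CpG. These 2 medians are of unlike sets. Each of the 40 genes had 1 window, the nearest to its 5′ end, whereas the 32851 windows were not reduced to 1 per gene. For Prdm1, Setd5 and Prdm8 the nearest start lay 69753, 27570 and 13671 bases from the 5′ end. The 8 genes with a window that were higher (median 24.5 CpG) and the 26 within 2-fold (median 27.5 CpG) lay close together, and 2 genes that were lower had a median of 22.5 CpG. The cyclic AMP response element TGACGTCA was found in 1 of the 40 windows, that of Suv39h2, starting 85 bases before the start site, and in 1.79% of all windows. The E-box CACGTG was found in 2 of the 40 windows, those of Ehmt2 and Kdm6a, and in 7.15% of all windows. The E2F motif GGCGGGAA was found in 2 of the 40 windows, those of Suv39h2 and Prdm10, and in 2.19% of all windows. The MYB core AACNG was found in 82.5% of the 40 windows and in 80.3% of all windows. Both strands were searched, and none of these motifs contains another.

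In the 3 pairs of H3K4 methyltransferases of the COMPASS type, Kmt2a, Kmt2c and Setd1a each held a larger share of the pair in knockout-labelled cells than in wild type. A larger share of either gene of a pair is by construction a smaller share of the other. KMT2A and KMT2B act at promoters, KMT2C and KMT2D at enhancers, and SETD1A and SETD1B provide much of the methylation at active promoters. Kmt2a (ENSMUSG00000002028, chr9:44803355-44881296, minus strand) measured 0.33 TPM in wild-type cells and 5.00 TPM in knockout-labelled cells, a 15.3-fold difference on TPM (log2 ratio 2.18). The fold on TPM rests on a wild-type value below 1 TPM. Kmt2b, which in mice is needed by spermatogonia, measured 43.0 and 45.2 TPM and held 99.2% of the pair in wild type and 90.1% in knockout-labelled cells. Kmt2c measured 8.64 and 18.02 TPM (log2 ratio 0.98) and Kmt2d 29.9 and 17.0 TPM (log2 ratio -0.78), neither past 2-fold with 1 TPM added, although Kmt2c was 2.09-fold higher on TPM and passed 2-fold after each of the 3 rescalings. The share of Kmt2c in this pair was 22.4% in wild type and 51.4% in knockout-labelled cells. Setd1a measured 18.3 and 32.4 TPM (log2 ratio 0.79) and Setd1b (ENSMUSG00000038384, chr5:123142193-123168629, plus strand) 15.4 and 7.08 TPM, 2.18-fold lower (log2 ratio -1.02). Setd1a thus held 54.3% of its pair in wild type and 82.1% in knockout-labelled cells. Of the 31-base words in its GENCODE M21 transcripts, 51.8% also occur in transcripts of other genes, mostly the gene Gm49388, so the level of Setd1a is uncertain. Of the 54 genes, 9 shared 5% or more of their words, and the median was 0.53%. After Setd1a came Setd3 (21.9%), Kdm4d (14.9%), Setdb1 (10.1%), Prdm4 (8.49%), Kdm2b (6.38%), Kdm5d (6.32%), Setd6 (6.20%) and Setd4 (5.21%). Setd7, whose product methylates H3K4 and other proteins, measured 0.31 and 1.34 TPM. Of the 7 genes 1 was higher and 1 lower, beside 18.7% and 16.5% of protein-coding genes at 1 TPM or more. The summed TPM of the 7 genes was 116 in wild type and 126 in knockout-labelled cells.

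Both H3K27 methyltransferases were within 2-fold. Ezh2, the main catalytic subunit of Polycomb repressive complex 2 (PRC2) in dividing cells, measured 103 TPM in wild-type cells and 125 TPM in knockout-labelled cells (log2 ratio 0.28). Ezh1 measured 15.6 and 21.3 TPM (log2 ratio 0.43). The share of Ezh2 in the pair, 86.9% and 85.5%, was among the steadiest of the 14 families compared. Of the 4 H3K36 methyltransferases 1 was higher and 0 lower, beside 18.7% and 16.5% of protein-coding genes at 1 TPM or more. Nsd1, which with its relatives places dimethyl marks on H3K36, measured 19.99 and 61.8 TPM, 3.09-fold higher (log2 ratio 1.58). Nsd2 measured 155 and 126 TPM (log2 ratio -0.30, positive under 2 of 3 rescalings) and Nsd3 30.4 and 21.5 TPM (log2 ratio -0.48). Nsd1 held 9.73% of the summed TPM of the trio in wild type and 29.6% in knockout-labelled cells, while the sum itself was 205 and 209 TPM. Setd2, the enzyme of H3K36 trimethylation in transcribed genes, measured 71.5 and 74.7 TPM.

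All 5 remaining SET-domain genes were within 2-fold. Setd3, the actin methyltransferase, measured 80.5 TPM in wild-type cells and 117 TPM in knockout-labelled cells (log2 ratio 0.53), and 21.9% of its 31-base words occur in transcripts of other genes. Setd5 measured 71.9 and 56.9 TPM and Kmt2e 53.2 and 44.8 TPM, with log2 ratios of -0.33 and -0.24, both positive after 2 of 3 rescalings. Setd4 measured 7.19 and 11.7 TPM (log2 ratio 0.64) and Setd6 3.46 and 5.57 TPM (log2 ratio 0.56).

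The Prdm genes, which encode zinc finger proteins with a SET-related domain, held 2 of the 11 higher and 1 of the 4 lower genes. They are 2 and 1 of 7 Prdm genes at 1 TPM or more, beside 18.7% and 16.5% of protein-coding genes. Prdm15 measured 3.72 TPM in wild-type cells and 10.9 TPM in knockout-labelled cells, 2.94-fold higher (log2 ratio 1.34), and Prdm4 10.9 and 26.5 TPM, 2.42-fold higher (log2 ratio 1.20). Prdm2 (ENSMUSG00000057637, chr4:143107391-143212995, minus strand), also known as RIZ, was the most abundant of the family in both libraries and measured 99.7 and 38.0 TPM, 2.63-fold lower (log2 ratio -1.37). Prdm8 measured 5.02 and 2.03 TPM, 2.48-fold lower on TPM and, with 1 TPM added, a log2 ratio of -0.99 just inside 2-fold, and Prdm11 12.7 and 9.50 TPM (log2 ratio -0.39). Prdm10 measured 4.77 and 4.97 TPM and Prdm6 0.99 and 1.25 TPM. PRDM1 and PRDM14 specify primordial germ cells in the embryo. Prdm1 measured 0.099 and 0.69 TPM and Prdm14 0.044 and 0.12 TPM. Prdm12, Prdm13 and Prdm16 act in neurons or in fat and other somatic tissues. Prdm12 measured 0.19 and 0.16 TPM, Prdm13 0.016 and 0.035 TPM, and Prdm16 0.35 and 0.25 TPM.

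Among the demethylases, the KDM4 family differed most in its makeup. The KDM4 proteins remove methyl groups from H3K9 and, except for KDM4D, from H3K36. Kdm4d (ENSMUSG00000053914, chr9:14462548-14500482, minus strand), which in mice is expressed mainly in testis, measured 102 TPM in wild-type cells and 30.1 TPM in knockout-labelled cells, 3.39-fold lower (log2 ratio -1.73). Kdm4b measured 2.06 and 9.55 TPM, 4.64-fold higher (log2 ratio 1.79). Kdm4c measured 5.39 and 11.0 TPM (log2 ratio 0.91) and Kdm4a 5.04 and 8.22 TPM (log2 ratio 0.61). The 3 broadly expressed paralogues were thus all above their wild-type level while Kdm4d was below it. Kdm4d held 89.1% of the summed TPM of the family in wild type and 51.1% in knockout-labelled cells, and that sum was 114 and 58.9 TPM. Kdm4d was the only gene among the 54 with its coding sequence in 1 exon in the GENCODE M21 annotation, and 14.9% of its 31-base words also occur elsewhere, mostly in the neighbouring pseudogene Kdm4dl. Kdm4dl itself measured 4.91 and 3.90 TPM (log2 ratio -0.27). Spermatid and late prophase markers were lower in the same library as Kdm4d, as given above, and their part in its level was not tested.

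The other H3K9 demethylases were led by Kdm3a. KDM3A removes lower methylation states of H3K9 and in mice is needed in spermatids for expression of the transition protein and protamine genes. Kdm3a was the most abundant of the 54 genes in wild type at 216 TPM and stood at 182 TPM in knockout-labelled cells (log2 ratio -0.24, positive under 2 of 3 rescalings). Its paralogue Kdm3b measured 6.10 and 19.4 TPM, 3.18-fold higher (log2 ratio 1.52), and held 2.75% and 9.60% of the pair. Kdm7a measured 13.7 and 18.6 TPM (log2 ratio 0.41). KDM2A and KDM2B remove methyl groups from H3K36, and KDM2B also brings Polycomb repressive complex 1 to unmethylated CpG islands. Kdm2b (ENSMUSG00000029475, chr5:122870665-122989823, minus strand) measured 105 and 49.0 TPM, 2.14-fold lower (log2 ratio -1.08), and this gene and Setd1b fell inside 2-fold under each of the 3 rescalings. Kdm2a measured 67.6 and 59.2 TPM (log2 ratio -0.19, positive under 2 of 3 rescalings). In the labelled knockout Kdm2a was thus the more abundant of the pair, at 54.7% against 39.2% in wild type.

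The flavin-dependent demethylases differed greatly in level. Kdm1a, also known as LSD1 and in mice needed in spermatogonia, measured 117 TPM in wild-type cells and 99.6 TPM in knockout-labelled cells (log2 ratio -0.23, positive under 2 of 3 rescalings). Kdm1b measured 1.18 and 3.79 TPM, 3.21-fold higher (log2 ratio 1.14), and held 0.996% and 3.66% of the pair. Of the KDM5 demethylases of H3K4, Kdm5b was the most abundant in both libraries at 171 and 193 TPM (log2 ratio 0.17) and Kdm5a measured 39.6 and 57.9 TPM (log2 ratio 0.54). Kdm8, whose activity on histones is debated, measured 3.24 and 2.52 TPM (log2 ratio -0.27, positive under 1 of 3 rescalings).

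The X-linked genes Suv39h1, Kdm6a and Kdm5c were all higher. The X and Y chromosomes are silenced in pachytene, and KDM5C and KDM6A have Y-linked relatives. Kdm5c measured 1.36 TPM in wild-type cells and 6.32 TPM in knockout-labelled cells, 4.65-fold higher (log2 ratio 1.63). Its Y-linked counterpart Kdm5d measured 7.01 and 6.77 TPM, with a log2 ratio of -0.04 (positive after all 3 rescalings). Kdm5c was thus below Kdm5d in wild type and close to it in knockout-labelled cells. Kdm6a, an H3K27 demethylase, measured 0.69 and 4.57 TPM, 6.65-fold higher on TPM (log2 ratio 1.72), and its Y-linked relative Uty 9.88 and 18.5 TPM (log2 ratio 0.84). The autosomal H3K27 demethylase Kdm6b measured 2.54 and 4.65 TPM (log2 ratio 0.67), so that Kdm6a held 21.3% of the Kdm6a and Kdm6b sum in wild type and 49.6% in knockout-labelled cells. Being higher is common on this chromosome: 62.7% of 620 X-linked protein-coding genes were past 2-fold. Kdm5c and Kdm6a lay at percentiles 62.6 and 65.3 of the log2 ratios of these genes, and Suv39h1 lay at percentile 90.0, with 61 X-linked genes above it. Of the 45 autosomal genes of the group at 1 TPM or more, 8 were higher and 4 lower, against 16.7% and 17% of 14267 autosomal protein-coding genes. In that library most or all markers of spermatogonia, early meiotic prophase, Leydig cells, Sertoli cells and macrophages given above were higher too, and their part was not tested.

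**Figure D3:**
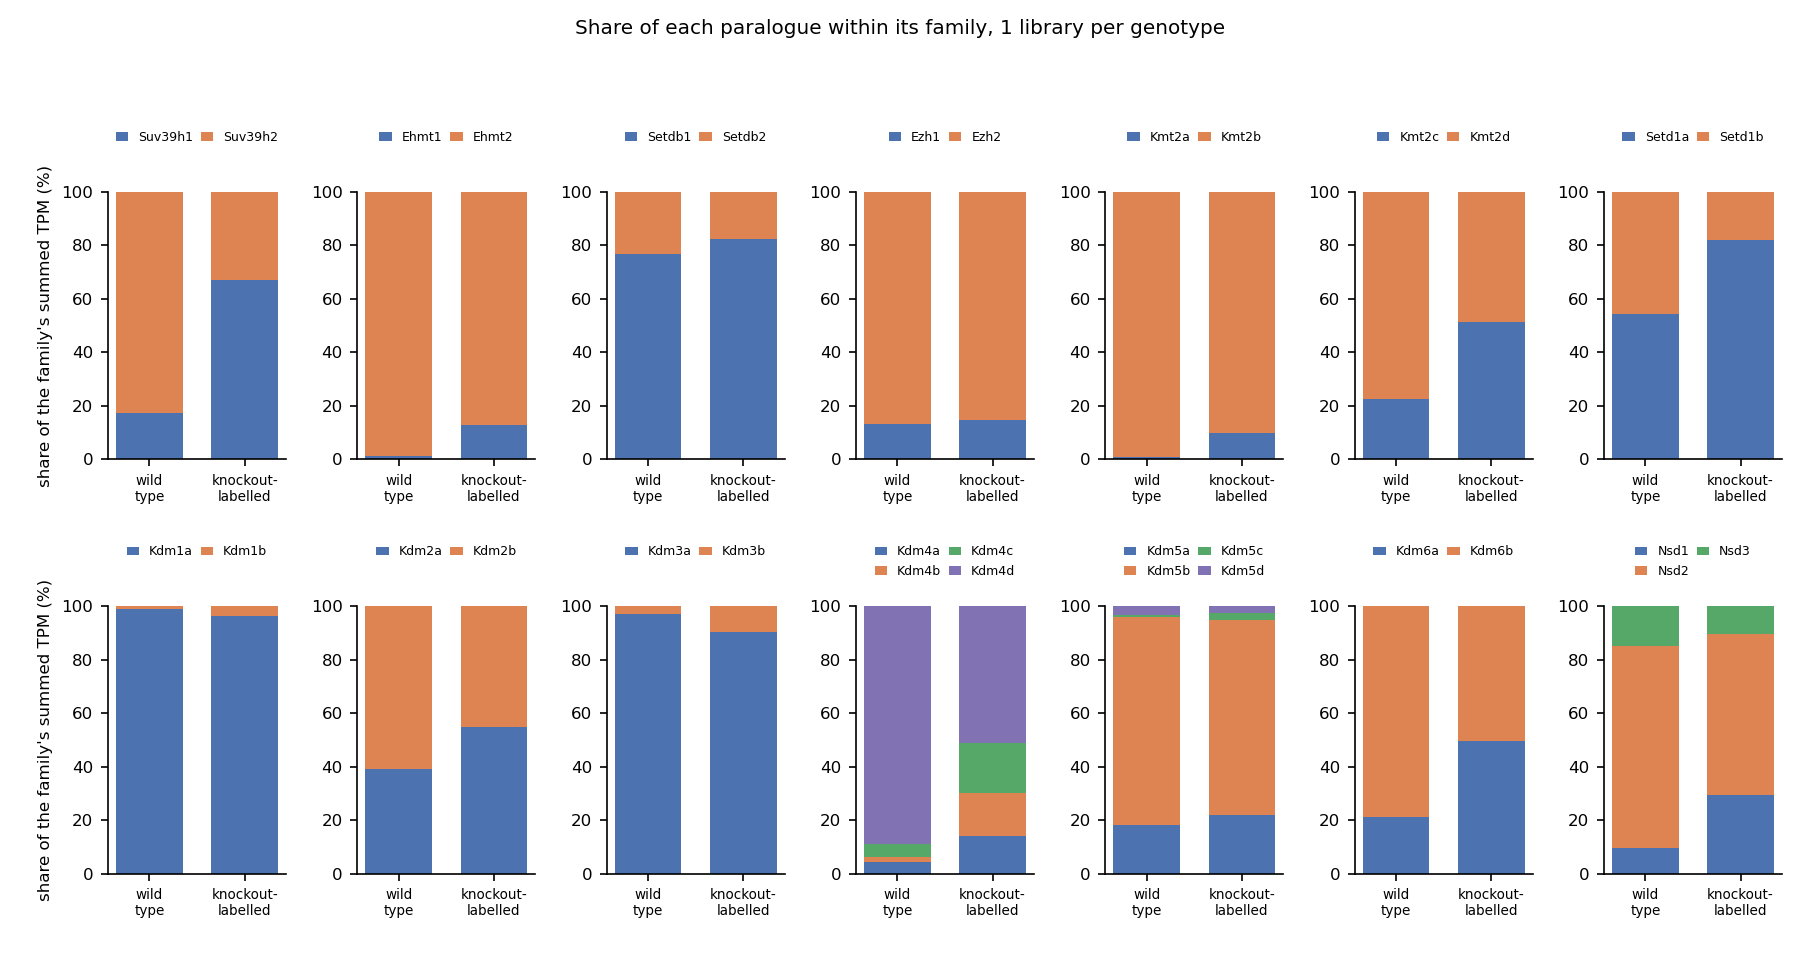
Share (%) of each paralogue in the summed TPM of its family, for 14 families, in the wild-type library (left bar) and the knockout-labelled library (right bar). Suv39h1, Kmt2c, Setd1a (level uncertain) and Kdm6a held between 27.8 and 49.8 percentage points more of their pair in knockout-labelled cells, the share of Kdm4d differed by -38.0 points, and the shares of the Ezh pair differed by 1.40 points.

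Shares within a family do not change with the scaling of a library, and 5 of the 14 families differed by 20 percentage points or more. These were the Suv39h pair (49.8 points towards Suv39h1), the KDM4 family (38.0 points away from Kdm4d), Kmt2c and Kmt2d (29.0 points towards Kmt2c), the Kdm6 pair (28.3 points towards Kdm6a) and the Setd1 pair (27.8 points towards Setd1a). The shift of the Setd1 pair is uncertain, because much of the Setd1a sequence is shared with other genes, as given above. The Nsd trio came just below, at 19.8 points towards Nsd1. The smallest shifts were those of the Ezh pair (1.40 points), the Kdm1 pair (2.67 points) and the KDM5 family (-5.03 points for Kdm5b). Weighting each gene by its length, which approximates shares of reads, left the same 5 families past 20 points and added the Nsd trio at 20.3 points.

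The ratio of summed demethylase to summed methyltransferase TPM is also free of scaling. It treats each gene under the group in which it was described, although some enzymes act on more than 1 lysine. For H3K9 it was 1.86 in wild type and 1.85 in knockout-labelled cells, and for H3K4, with the KDM5 family alone, 1.89 and 2.09. Kdm1a and Kdm1b, at 118 and 103 TPM summed, were counted under no lysine, so the H3K4 ratio depends on leaving them out. For H3K36, with Kdm2a and Kdm2b, the ratio was 0.62 and 0.38. Kdm4a, Kdm4b and Kdm4c, whose products also act on H3K36, were counted under H3K9 alone. Each was above its wild-type level, so the H3K36 ratio depends on this grouping. For H3K27 the ratio was 0.027 and 0.063, with demethylases at 3.23 and 9.22 TPM against methyltransferases at 119 and 147 TPM. Kdm7a alone, at 13.7 and 18.6 TPM, was above this demethylase sum and was counted under H3K9 alone. The H3K27 ratio therefore depends on the grouping as well. The H3K9 ratio thus differed by less than 1% of its value while the genes that make it up differed by up to 11.1-fold.

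Genes that work with these enzymes were described from lists outside the families. The lists are small, and their counts stand beside 18.7% higher and 16.5% lower among protein-coding genes at 1 TPM or more. Of 11 partners of COMPASS complexes 2 were higher and 0 lower, with a median log2 ratio of -0.29 that was positive after 2 of 3 rescalings. The higher genes were the X-linked Hcfc1 (0.79 and 7.17 TPM, log2 ratio 2.19) and Wdr5 (17.98 and 49.2 TPM, log2 ratio 1.40). Among 10 measured PRC2 partners, 8 of them at 1 TPM or more, 2 were higher and 0 lower. The higher PRC2 partners were the X-linked Rbbp7 (6.97 and 46.7 TPM, log2 ratio 2.58) and Jarid2 (8.68 and 27.3 TPM, log2 ratio 1.55). The core PRC2 subunits Eed (44.7 and 46.3 TPM) and Suz12 (60.4 and 62.2 TPM) differed little, like Ezh2, with log2 ratios of 0.05 and 0.04. All 9 genes of H3K9 methylation partners and heterochromatin proteins were within 2-fold, with a median of -0.37, among them Trim28 at 538 and 416 TPM (log2 ratio -0.37). The median and the ratio of Trim28 were both positive after 1 of 3 rescalings. Of 9 partners of LSD1 3 were higher and 2 lower. Rcor2 measured 0.21 and 4.34 TPM (log2 ratio 2.14) and Hdac2 18.8 and 47.4 TPM (log2 ratio 1.29), while Phf21a measured 103 and 38.5 TPM (log2 ratio -1.40) and Rcor3 107 and 49.4 TPM (log2 ratio -1.10). Of 19 further methyltransferases and demethylases, 18 of them at 1 TPM or more, 3 were higher and 3 lower, with a median of 0.51. Smyd5 (3.38 and 16.0 TPM, log2 ratio 1.95) and Smyd2 (5.44 and 13.3 TPM, log2 ratio 1.15) were the highest. Phf2, an H3K9 demethylase (53.6 and 14.9 TPM, log2 ratio -1.78), and Dot1l, the H3K79 methyltransferase (83.0 and 30.3 TPM, log2 ratio -1.42), were the lowest.

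Genes that overlap the enzyme genes on the other strand did not always follow them. The libraries were strand-specific, but the sources used here do not state whether counting used strand. Kdm6bos, an antisense RNA inside Kdm6b, measured 10.5 TPM in wild-type cells and 3.39 TPM in knockout-labelled cells (log2 ratio -1.39), opposite to Kdm6b. A730035I17Rik, antisense to Prdm8, measured 54.9 and 28.1 TPM (log2 ratio -0.94), in the same direction as Prdm8 and well above it. Gm14820, antisense to Suv39h1 over 13449 bases, measured 2.46 and 2.43 TPM (log2 ratio -0.01), against the 1.24 and 13.7 TPM of Suv39h1. These overlapping genes were chosen after their values were seen.

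The scale of the libraries moved all ratios together. Rescaling raised the median of protein-coding genes by 0.16 (trimmed mean), 0.36 (protein-coding genes only) and 0.41 (without mitochondrial and the 20 most abundant genes) on the log2 scale. Of the 49 genes, 41 kept their direction under all 3 rescalings. The other 8, Kdm2a, Kdm1a, Kdm3a, Kmt2e, Setd5, Nsd2, Kdm8 and Kdm5d, had log2 ratios between -0.33 and -0.04 as deposited. All 11 higher genes remained past 2-fold under each rescaling, and of the 4 lower genes Kdm4d did so as well, whereas Prdm2 did so in 2 of the 3.

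**Figure D4:**
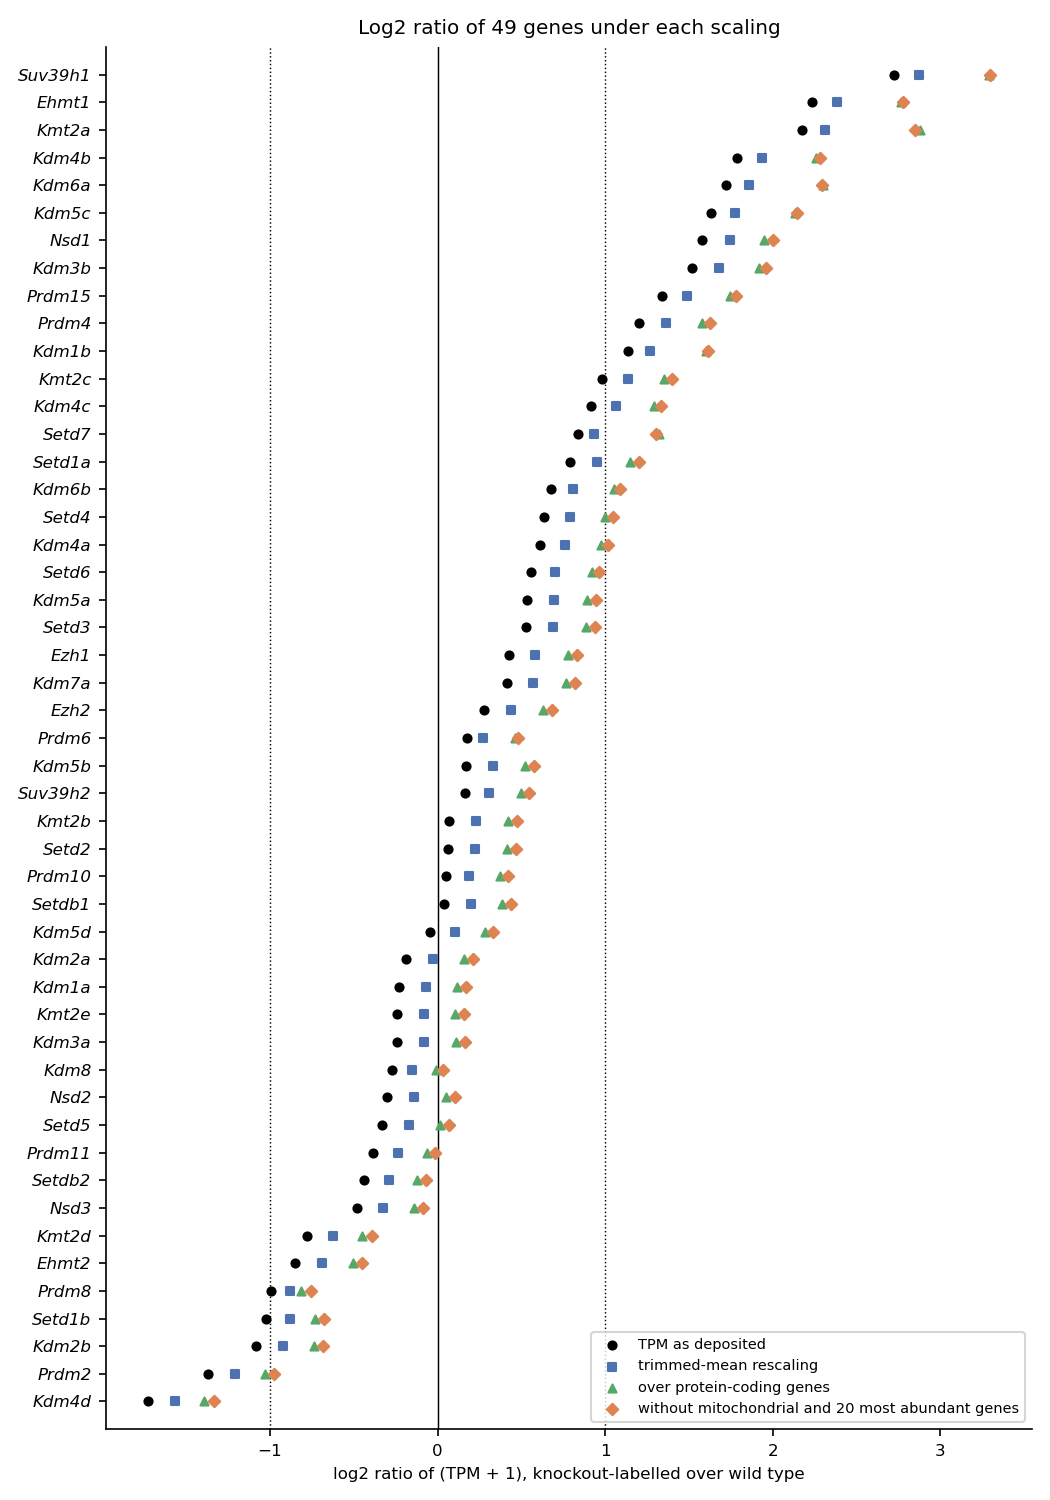
Log2 ratio of (TPM + 1), knockout-labelled over wild type, of the 49 genes at 1 TPM or more, as deposited (black) and under 3 rescalings (colours), ordered by the deposited ratio, with dotted lines at 2-fold. Every rescaling moved the genes to the right, and Kdm4d stayed left of the lower line under all of them.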

How the data were processed

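RNA of 1 library per genotype was analysed, grouped by the genotype labels. Per the labels' protocols, total RNA was depleted of ribosomal RNA, made into strand-specific libraries and sequenced in single reads of 75 bases to at least 40000000 reads. The deposited table holds TPM values made by the authors, which sum to 1000000 per library over 53801 genes, and, per the file headers, other gene properties such as length in bases and G+C content in percent. The deposited percent values describe genes, not samples. The submitters' processing notes name the mm10 build and the tools kallisto 0.43.1, TopHat, GSNAP and bcl2fastq 2.19.1, with roles, filters and annotation release not given in the sources used here. TPM keeps no read counts, so the depth is unknown and no count test, interval or detection limit was possible.

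From these values log2 ratios with a pseudocount of 1 TPM, 2-fold counts, medians, paralogue shares and correlations were computed. All measured genes of each list were used, with the highest of repeated symbols. Of the 54 genes, all 54 were in GENCODE M21, 53 of them with the same start and end. The members, roles, partner and marker lists were chosen with earlier results of these data known. Every gene of the group is named with its values, and of each partner list up to 2 genes furthest in each direction past 2-fold. Uty, Eed, Suz12, Trim28, Kdm4dl and the overlapping genes were added after their values were seen, as were the motifs and promoter windows and the shared 31-base words. Genes that match the family names but are not among the 54 are not reported here. Alternatives were pseudocounts of 0.1 and 5 TPM, 3 rescalings (a mean of log2 ratios with 30% trimmed at each end, a total without mitochondrial and the 20 most abundant genes, and a total over protein-coding genes), filters and a 4-fold threshold. The computation was tested on simulated data. Computation ran in Python 3.11.15 with pandas 2.3.3, NumPy 2.4.6 and Matplotlib 3.10.9.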

Additional observations from a re-analysis of the deposited data

How the results depend on the processing

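The median log2 ratio of the 54 genes, 0.17 as reported, was positive under every setting run. It was 0.25 with a pseudocount of 0.1 TPM, 0.085 with 5 TPM, 0.29 after trimmed-mean rescaling, 0.51 without the 20 most abundant and the mitochondrial genes, 0.48 over protein-coding genes, and 0.16 and 0.17 for the genes kept by a filter of 5 TPM (41 genes) and by a filter on mean TPM (48 genes). The 54-gene median stood beside 0.00 over all protein-coding genes. For genes at 1 TPM or more, the medians were 0.18 over 49 members and -0.046 over protein-coding genes. The latter is the background median used here, whereas the rescaled medians of the group are over all 54 genes. Under the rescalings, in the same order, that background median was 0.11, 0.36 and 0.32, so both medians rose together. With the other pseudocounts and these filters the background median lay between -0.18 and -0.028. The count of higher genes, 11 as reported, was 5 with a pseudocount of 5 TPM, 19 without the 20 most abundant and the mitochondrial genes, 17 over protein-coding genes and 3 at 4-fold, and lay between 8 and 14 under the other settings. The count of lower genes, 4 as reported, was 2 after trimmed-mean rescaling, 1 without the 20 most abundant and the mitochondrial genes, 2 over protein-coding genes and 0 at 4-fold, and lay between 3 and 5 under the other settings. Over protein-coding genes the share of higher against lower moved likewise, from 18.7% and 16.5% to 28.1% and 9.78% without the 20 most abundant and the mitochondrial genes. These shares were 21.5% and 13.2% after trimmed-mean rescaling and 27.2% and 10.6% when rescaled over protein-coding genes. They were 23.9% and 19.8% with a pseudocount of 0.1 TPM, 6.86% and 10.5% with 5 TPM, and 4.67% and 3.28% at 4-fold. With a filter of 5 TPM they were 16.5% and 20.3%, and with a filter on mean TPM 18.2% and 17.2%. A pseudocount of 5 TPM put 7 of the 15 called genes inside 2-fold, acting on low genes by construction, and each rescaling raised the ratios of all 49 genes. No paired analysis was possible because each genotype has 1 library, and no library could be left out. Depth is unknown, so the genes below 1 TPM have values whose precision cannot be stated.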
